A study of Mus musculus with 4 samples.

Results

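Classical monocytes of the aged mouse kidney were studied as 380 single-cell barcodes, out of 50605 barcodes kept from 4 libraries and 21567 of them with at least 1 UMI of Ptprc, the gene of the leukocyte antigen CD45. Members were chosen by the raw UMIs (unique molecular identifiers, counted transcripts) of a few genes. A member had at least 1 Ptprc, at least 2 Ly6c2, at least 1 Ccr2 or Chil3 and at least 2 Csf1r or Lyz2 UMIs. It had at most 9 UMIs of C1qa, C1qb and C1qc together, at most 1 of Retnlg and Cxcr2, at most 2 of Mki67 and Top2a, and none of Cd3d, Cd3e, Cd3g, Cd79a and Siglech. The genes of this rule chose the members, so their levels in the members are given as a description with no test.

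Classical monocytes are made in the bone marrow, leave it by way of the chemokine receptor CCR2, circulate with high surface Ly6C and enter inflamed or injured tissue. There they can become macrophages or cells that resemble dendritic cells, and in the blood they can convert into nonclassical monocytes, which lose Ly6C and patrol the vessel wall. In the kidney they stand beside resident macrophages, which make the C1q chains of complement and high MHC class II.

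The libraries came from kidneys of male C57BL/6 mice, 19 months old, that had received BPTES or its vehicle, DMSO, over 1 month, and each group had 2 libraries. BPTES is an allosteric inhibitor of glutaminase, the enzyme that turns glutamine into glutamate. Liberase was used to digest the tissue, per the labels, and a CD45 stain and sort set the mix of each 10x GEM-X 3' library at 9000 leukocytes with CD45 and 20000 cells without it. The labels do not say whether a library is 1 animal, so p-values measure only the spread between these libraries, which may be technical.

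The BPTES libraries gave 102 and 133 members and the DMSO libraries 108 and 37. Their summed profiles held 2922857, 3480914, 3155671 and 1074412 UMIs, so the second DMSO library carried the least data. The median member had 26382.5, 24544, 26780.5 and 26061 UMIs, above the 13708.5 to 15746 UMIs of all Ptprc-positive barcodes. The median mitochondrial share of the members was 1.48% to 1.76%. Pairs of libraries shared 90 to 114 barcode sequences among 17907 to 20091 barcodes each.

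At the edge of the rule, 34 members had exactly 2 Ly6c2 UMIs, and 73 further barcodes met every other condition with 1 Ly6c2 UMI. The C1q limit fell in a gap. Only 1 member had 8 or 9 C1q UMIs and 1 barcode outside had 10 or 11, while 95 barcodes that met every other condition had 12 or more.

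Most marker genes matched the label, but not all members can be called classical monocytes on these genes alone, as the sets described further on show. Plac8, a lysosomal gene highly expressed by classical monocytes and the 1 given marker outside the rule, had a UMI in 95.4% to 100% of members per library. F13a1, the coagulation factor XIII A chain, had one in 83.8% to 95.5%, Fn1 (fibronectin) in 81.1% to 93.2% and the integrin gene Itgam, which the related classes also express, in 91.7% to 98.5%. In tubule barcodes, which lack Ptprc and carry at least 3 UMIs of Slc34a1 and Lrp2, 15.9% to 26.3% had a Plac8 UMI and 0.404% to 0.747% an F13a1 UMI. Median depth was 24544 to 26780.5 UMIs in members and 15592 to 19282 in tubule barcodes. S100a8 and S100a9, the calprotectin chains, were nearly absent. S100a8 had a UMI in 7.84% to 20.4% of members against 5.51% to 7.86% of tubule barcodes, and S100a9 in 5.88% to 17.3% against 8.45% to 12.1%.

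Summed levels separated the members from 2 related classes taken from the same libraries. Nonclassical monocytes had at least 2 UMIs of Treml4 and Ace and at most 9 of C1q, and C1q macrophages at least 10 of C1q. Both had at most 1 Ly6c2 UMI and met the conditions on the other genes apart from Ccr2 and Chil3. There were 741 nonclassical monocytes and 2737 C1q macrophages. All levels below are CPM, counts per 1000000 UMIs of a library's summed class. For tested genes in all members, the CPM are also scaled by a factor per library (TMM, 0.970 to 1.04). CPM of the other classes and of sets of members are not scaled. Plac8 stood at 2333 to 2873 CPM in classical monocytes, 684 to 756 in nonclassical monocytes and 68.4 to 113 in C1q macrophages. F13a1 stood at 584 to 843, 6.73 to 24.2 and 19.1 to 55.5 CPM in the same order. Vcan, the proteoglycan versican, stood at 127 to 329, 0.432 to 11.4 and 1.62 to 3.09 CPM. For each of these genes every classical library lay above every library of the other classes. H2-Aa, an MHC class II chain, ran the other way against macrophages, at 1286 to 2517 CPM in classical monocytes and 10874 to 11886 CPM in C1q macrophages. These class differences rest partly on the rule and are a description.

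**Figure D1:**
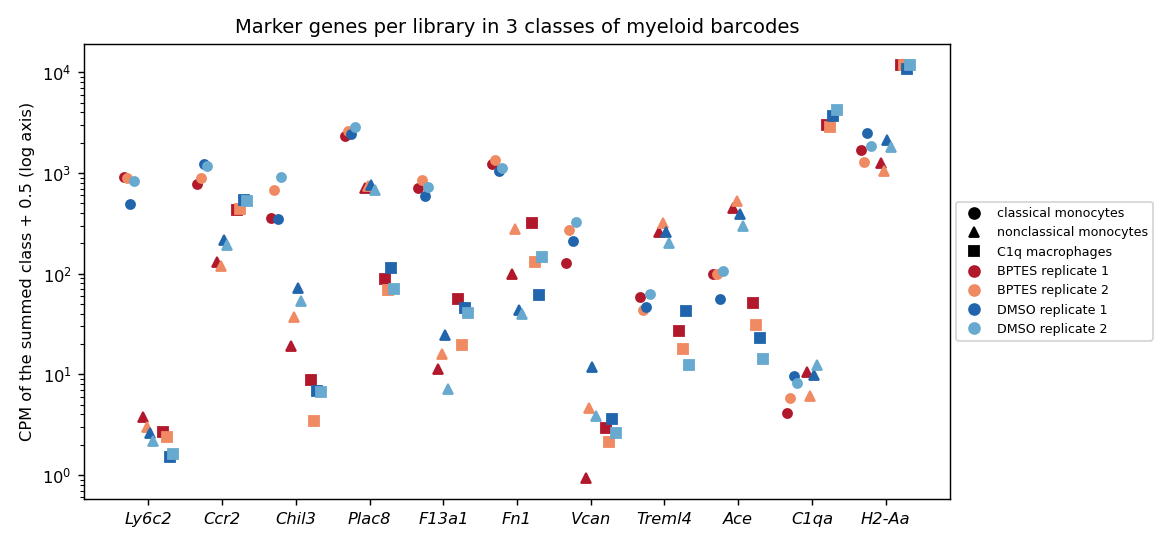
Level of marker genes (vertical axis, CPM plus 0.5, log scale) in the summed barcodes of each library, for classical monocytes (circles), nonclassical monocytes (triangles) and C1q macrophages (squares), coloured by library. Plac8, F13a1 and Vcan lie higher in all 4 classical profiles than in any other, Treml4 and Ace are highest in nonclassical profiles, and C1qa and H2-Aa in macrophages.

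The 4 given markers varied between libraries. Ly6c2, a GPI-anchored surface protein, stood at 916 and 885 CPM under BPTES and 488 and 831 CPM under DMSO, with DMSO replicate 1 well below the other 3 libraries. Ccr2, the receptor for the monocyte chemoattractant CCL2, stood at 780.1 and 894 CPM under BPTES and 1225 and 1176 CPM under DMSO. Both DMSO libraries lay above both BPTES libraries for Ccr2, and both BPTES libraries above both DMSO libraries for Ly6c2. The rule used both genes. Over all tested genes, 21.9% were higher and 21.6% lower under BPTES without overlap of the groups. Chil3, a secreted chitinase-like protein of young classical monocytes, stood at 354 and 678 CPM under BPTES and 349 and 920.0 CPM under DMSO. Replicate 2 was above replicate 1 in each group, and the groups overlapped. Plac8, the marker the rule did not use, stood at 2333 and 2594 CPM under BPTES and 2461 and 2873 CPM under DMSO, a log2 fold change of -0.11 ± 0.15 (SE) with overlapping groups.

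The members were not uniform. Chil3 was detected in 61.8% of them and Ccr2 in 98.2%. Members with at least 2 UMIs of Treml4 and Ace, genes of nonclassical monocytes, numbered 148 (38.9%). Members with at least 3 UMIs of the dendritic cell genes Flt3, Cd209a, Xcr1 and Clec9a numbered 81 (21.3%), and members with at least 3 UMIs of tubule or vessel markers numbered 66 (17.4%). The first 2 cutoffs were set after the values were seen. The last set, with 1 member above 3 times the median total, is called doublet-like below. Sets can overlap, and 139 members (36.6%) belonged to none of them. Members with tubule or vessel markers were deeper, with library medians of 28064.5 to 37223 UMIs against 22777 to 26790.5 in members of no set. Slc34a1, a tubule marker, had a UMI in 45.9% to 62.2% of all members per library. How far depth or tubule RNA from outside the cell brought members into this set was not tested.

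Each set was found in all 4 libraries. Nonclassical markers were carried by 40.2% (95% exact binomial interval 30.6 to 50.4) and 38.3% (30.1 to 47.2) of members under BPTES. Under DMSO they were carried by 37.0% (27.9 to 46.9) and 43.2% (27.1 to 60.5). Dendritic cell markers were carried by 25.5% and 16.5% under BPTES and by 24.1% and 18.9% under DMSO. Among all members per library, Flt3 had a UMI in 37.8% to 51.0% and Cd209a in 9.77% to 15.7%. Which of the dendritic cell genes admitted a member was not separated. Tubule or vessel markers were carried by 24 of 102 and 16 of 133 members under BPTES and by 20 of 108 and 6 of 37 under DMSO. For all 3 sets the treatment groups overlapped. The share of members in no set was 30.4% and 45.1% with BPTES, against 33.3% and 32.4% with DMSO. Intervals cover counting error only.

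The sets differed in levels the cutoffs did not use. Members with dendritic cell markers had 3203 to 6057 CPM of H2-Aa and 29.8 to 116 CPM of Vcan. Members of no set had 689 to 889.7 CPM of H2-Aa and 307 to 421 CPM of Vcan. Neither pair of ranges overlapped, and the order was opposite for the 2 genes. Nr4a1, an orphan nuclear receptor that nonclassical monocytes need, stood at 669 to 1094 CPM in members with nonclassical markers and 359 to 652 CPM in members of no set. In nonclassical monocytes proper it stood at 551 to 721 CPM.

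MHC class II varied widely among members. The summed level of H2-Aa, H2-Ab1, H2-Eb1 and Cd74 had a median of 11.3 UMIs per 10000 UMIs of a member, with quartiles of 2.14 and 84.2 and a highest value of 903. In the tercile of members with the lowest level (127 members), median Fn1 was 15.1, F13a1 7.85, Ly6c2 7.63 and Chil3 3.24 UMIs per 10000. In the tercile with the highest level (127 members), median Fn1 was 4.24, F13a1 3.40 and Ly6c2 2.69 UMIs per 10000, and median Chil3 was 0. The boundaries lay at 3.19 and 49.3 UMIs per 10000, with 23 and 28 members within 20% of them, so the terciles are ranges and not types. Ccr2 hardly followed this axis, with medians of 8.57 and 9.61 UMIs per 10000. Across the 380 members, Spearman's coefficient was -0.46 between MHC class II and Vcan and -0.46 between MHC class II and Fn1. It was 0.70 between F13a1 and Fn1 and 0.60 between F13a1 and Lyz2. Members share libraries and differ in depth, so these coefficients only describe them.

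By library, the median MHC class II level was 7.31 and 8.84 UMIs per 10000 under BPTES and 15.9 and 24.2 under DMSO. The lowest tercile held 41.2% and 39.1% of members under BPTES and 24.1% and 18.9% under DMSO. Both measures placed the BPTES libraries on 1 side and the DMSO libraries on the other. Tubule barcodes, taken by the rule given above, split the same way, with Cd74 at 42.6 and 40.9 CPM under BPTES and 91.2 and 104 CPM under DMSO and H2-Ab1 at 32.1 and 27.7 against 61.9 and 66.8 CPM. The part of such UMIs in the split was not tested. The highest tercile held 33.3% and 28.6% under BPTES and 37.0% and 40.5% under DMSO.

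**Figure D2:**
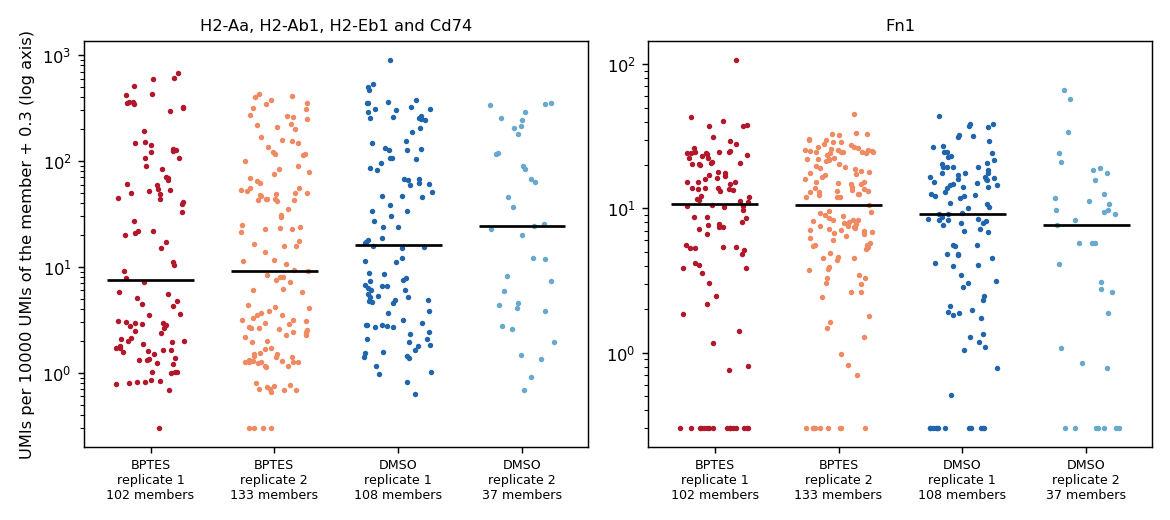
Level per member (vertical axes, UMIs per 10000 UMIs of the member plus 0.3, log scale) of MHC class II genes, left, and of Fn1, right. Each point is 1 member, points at the bottom had no UMI, and bars are library medians. MHC class II spans more than 2 powers of 10 within each library, and the BPTES medians, 7.31 and 8.84, lie below the DMSO medians, 15.9 and 24.2.

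The study design first asks whether BPTES changed how many monocytes were captured. In the BPTES libraries 1.86% (95% exact binomial interval 1.52 to 2.25) and 2.63% (2.21 to 3.11) of Ptprc-positive barcodes were members. The DMSO shares were 1.86% (1.53 to 2.24) and 0.710% (0.501 to 0.978). The first BPTES and first DMSO library were alike, and the difference came from BPTES replicate 2 and DMSO replicate 2. Means were 2.25% ± 0.548 (SD, n = 2) and 1.28% ± 0.811 (SD, n = 2), a difference of 0.962 percentage points (exact two-sided permutation test over libraries, p = 0.333). That is the smallest p that 2 against 2 libraries allow. Ptprc-positive barcodes were 21567 of the 50605 kept, a larger part than the 31.0% of cells with CD45 in the sorted mix. A share of these barcodes therefore need not be a share of leukocytes. With all kept barcodes as the denominator the BPTES shares were 0.778% and 1.14% and the DMSO shares 0.823% and 0.292%, and these overlapped.

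The share depends on depth, since deeper barcodes pass the rule more easily. Ptprc-positive barcodes were therefore also thinned to 2000 UMIs, leaving out shallower ones, and all conditions were applied again, Ptprc included. Of those still Ptprc-positive, 38 of 3950 (0.962%) and 53 of 3796 (1.40%) passed under BPTES and 31 of 4340 (0.714%) and 20 of 3743 (0.534%) under DMSO. Thinning makes the lower limits of the rule harder to meet and the upper limits easier, so barcodes that passed need not be members. Without doublet-like members the shares were 1.42% and 2.32% under BPTES and 1.51% and 0.595% under DMSO, and the groups overlapped.

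**Figure D3:**
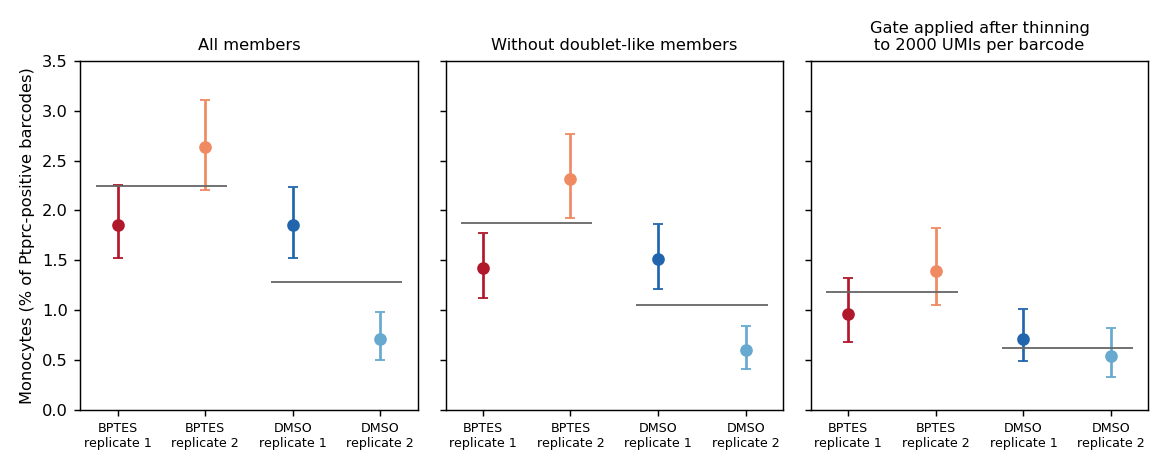
Share of Ptprc-positive barcodes that pass the rule (vertical axis, percent) in each library, for all members, without doublet-like members, and with the rule applied after thinning. Points are libraries, bars are exact 95% binomial intervals, and grey lines are group means. DMSO replicate 2 is lowest in each panel and BPTES replicate 2 highest.

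For expression, UMIs were summed over the members of each library and tested across the 4 sums. With edgeR's quasi-likelihood test 0 of 10319 genes (0%) passed an adjusted p of 0.05. At an unadjusted p under 0.05 there were 1023 genes, 535 higher (5.18%) and 488 lower (4.73%) under BPTES. DESeq2 called 52 of 4868 genes (1.07%), 24 higher and 28 lower. After removal of doublet-like members edgeR called 44 of 9358 genes (0.47%), of which 23 were among the DESeq2 calls. The median log2 fold change over all genes was 0.0062. "Higher" and "lower" below always mean BPTES relative to DMSO, and no gene rose or fell by the main test.

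The 23 genes called in both alternatives, 17 higher and 6 lower, had groups without overlap in the full data. They were singled out after their values were seen. Both tests used these same libraries, so the lack of overlap follows largely from the choice and adds no evidence. All 52 DESeq2 calls lacked overlap too. Without all 3 member sets edgeR called 14 of the 23. Over all genes, 2261 (21.9%) were higher without overlap and 2228 (21.6%) lower.

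Among the higher genes was Tsc22d3, the glucocorticoid-induced leucine zipper, at 259 and 329 CPM under BPTES and 101 and 118 CPM under DMSO. Its log2 fold change was 1.44 ± 0.17 (SE) (DESeq2 adjusted p = 6.55e-07, edgeR adjusted p without doublet-like members = 0.00111, edgeR adjusted p with all members = 0.209). Both BPTES libraries lay at more than 2 times the level of either DMSO library. Txnip, which binds thioredoxin and curbs glucose uptake, stood at 233 and 249 CPM under BPTES and 126 and 86.7 CPM under DMSO, a log2 fold change of 1.14 ± 0.19 (SE) (DESeq2 adjusted p = 0.00081). The inducible Hsp70 chaperone genes Hspa1a and Hspa1b stood at 398 and 452 against 256 and 243 CPM and at 329 and 321 against 194 and 172 CPM. The 2 are near-identical copies, so reads may be split between them. Hspa1a was detected in 86.3% and 87.2% of BPTES members and 62.96% and 40.5% of DMSO members, at closely matched median depths.

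Itga4, the alpha chain of the VLA-4 integrin with which monocytes bind VCAM-1, stood at 844 and 907 CPM under BPTES and 571 and 559.7 CPM under DMSO, a log2 fold change of 0.63 ± 0.13 (SE) (DESeq2 adjusted p = 0.00459). Arhgef37, of a guanine nucleotide exchange factor family, stood at 267 and 304 against 139 and 135 CPM, with a log2 fold change of 1.06 ± 0.14 (SE). The transcription factor gene Rfx2 stood at 148 and 164 against 58.2 and 68.4 CPM, with a log2 fold change of 1.32 ± 0.16 (SE). Each of the 3 had both BPTES libraries close together and well above both DMSO libraries. The orphan receptor Gpr141 had a log2 fold change of 0.87 ± 0.14 (SE), Tmcc1 of the endoplasmic reticulum 0.97 ± 0.16 (SE), the SNARE-binding Stxbp6 1.00 ± 0.18 (SE) and Sh3bp5 1.24 ± 0.16 (SE). The ubiquitin ligase gene Herc4 had 0.66 ± 0.13 (SE), the zinc finger gene Zfp710 0.78 ± 0.14 (SE), Rsrp1 0.83 ± 0.14 (SE) and Fam102b 1.15 ± 0.16 (SE). The other higher genes, Igkc and Igha, are immunoglobulin genes and are treated at the end.

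The 6 lower genes included 2 lysosomal proteases. Ctsd, an aspartyl protease, stood at 86.05 and 110.4 CPM under BPTES and 195 and 175 CPM under DMSO, a log2 fold change of -0.92 ± 0.17 (SE) (DESeq2 adjusted p = 0.025). Lgmn, the asparaginyl endopeptidase legumain, stood at 220.3 and 212 CPM under BPTES and 380.3 and 408 CPM under DMSO, a log2 fold change of -0.86 ± 0.13 (SE) (DESeq2 adjusted p = 0.000669). For both, the DMSO libraries held more than 1.5 times the level of the BPTES libraries. The fatty acid-binding protein gene Fabp5 stood at 30.6 and 46.2 against 92.4 and 105 CPM, with a log2 fold change of -1.35 ± 0.22 (SE). Ccr1, a receptor for CCL3 and CCL5, stood at 37.5 and 53.6 against 92.1 and 124 CPM, with a log2 fold change of -1.22 ± 0.23 (SE). Basp1 and the sorting nexin gene Snx24 had log2 fold changes of -1.88 ± 0.31 (SE) and -2.25 ± 0.33 (SE). Basp1 was uneven among members: 1 member held 47.8% of its UMIs in BPTES replicate 1.

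**Figure D4:**
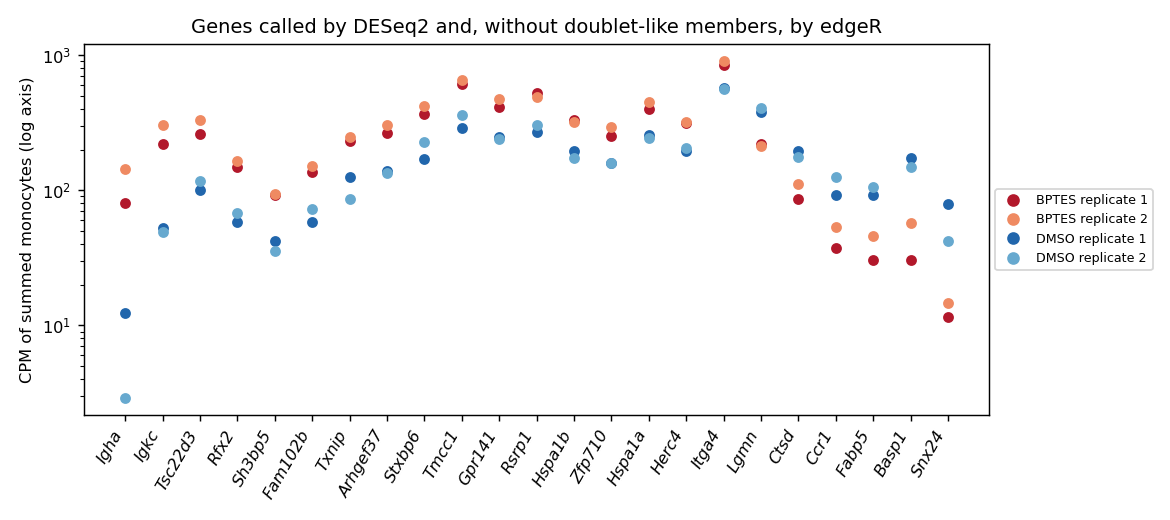
Level (vertical axis, CPM of summed monocytes, log scale) in each library of the 23 genes called both by DESeq2 and by edgeR without doublet-like members, ordered by log2 fold change. Points are libraries. Both BPTES libraries lie above both DMSO libraries for the 17 genes on the left and below them for the 6 on the right.

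Some DESeq2 calls rested on single members. Cxcl9, the interferon gamma-induced chemokine of CXCR3, stood at 6.64 and 1.47 CPM under BPTES and 109.7 and 56.8 CPM under DMSO (DESeq2 adjusted p = 2.13e-10), but 1 member held 99.1% of its UMIs in DMSO replicate 1 and 1 member all of them in DMSO replicate 2. Saa3, an acute phase gene, stood at 2.66 and 1.47 CPM under BPTES and 37.4 and 224 CPM under DMSO, and 1 member held 85.7% and 96.98% of its UMIs in the DMSO libraries. Neither gene passed edgeR's test without doublet-like members, with adjusted p of 0.772 and 0.604. Vessel genes gave the same picture on the BPTES side. Kdr, Emcn and Plvap together had 177 and 189 UMIs under BPTES, of which 1 member held 163 and 2 members held 177, against 22 and 4 UMIs under DMSO. Ly6c1, a near-identical copy of Ly6c2 that endothelial cells express, was likewise concentrated, with 1 member holding 80.9% and 61.4% of its UMIs in the BPTES libraries. How reads were shared between Ly6c1 and Ly6c2 is uncertain.

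Pathway lists are described next, each by how many tested genes had groups without overlap, beside the 21.9% higher and 21.6% lower over all genes. No gene of any list passed the main test. Trafficking genes were near that background, with 6 of 23 tested genes (26.1%) higher and 3 of 23 tested genes (13%) lower. The most abundant members were the hyaluronan receptor Cd44 at 990.0 to 1475 CPM and Itga4. Among integrins, Itgal (the alpha chain of LFA-1) stood at 243 and 282 against 176 and 241 CPM beside Itga4, with a log2 fold change of 0.35 ± 0.18 (SE). Among chemoattractant receptors, Ccr1 was joined by C5ar1, the receptor of complement fragment C5a, at 24.3 and 33.3 against 62.2 and 99.2 CPM and a log2 fold change of -1.45 ± 0.28 (SE) (DESeq2 adjusted p = 0.0201). The complement receptors C3ar1 and C5ar2 were also lower without overlap, neither past the main test.

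**Figure D5:**
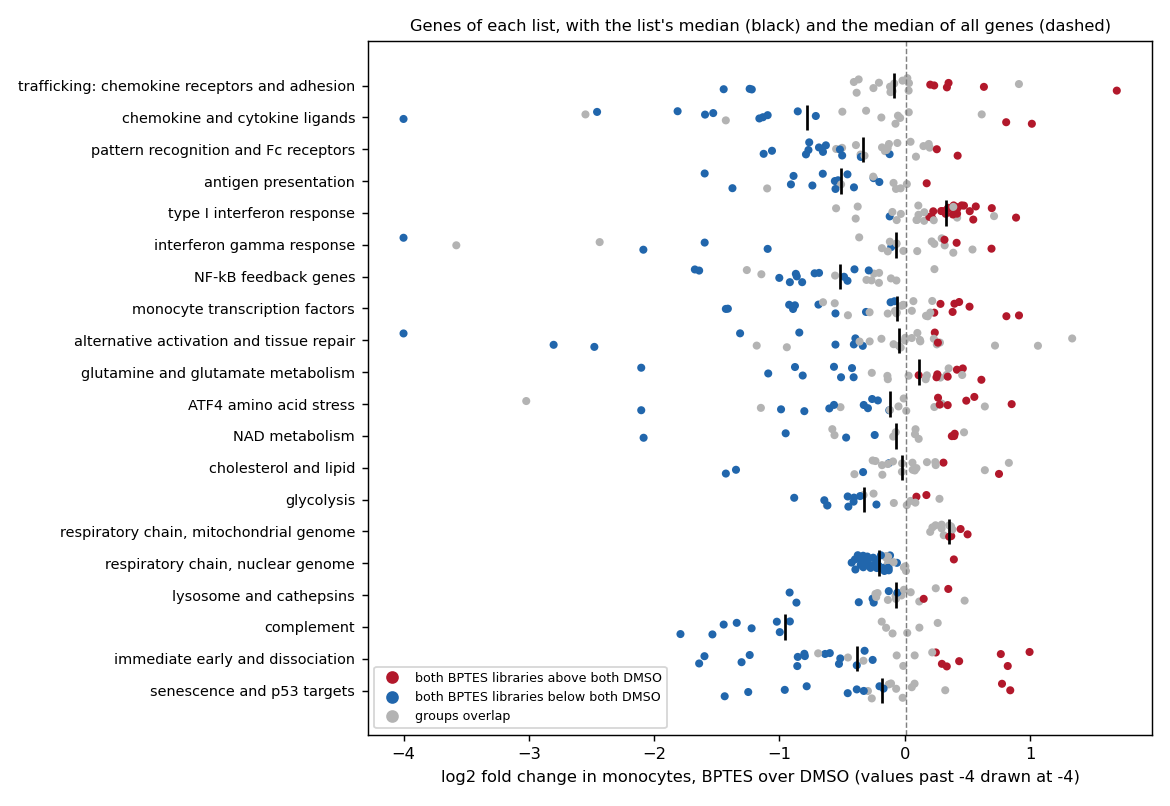
Log2 fold change of each tested gene (horizontal axis, BPTES over DMSO) in 20 gene lists, coloured by whether both BPTES libraries lie above, below or among the DMSO libraries. Black bars are list medians and the dashed line is the median of all genes. The medians of the type I interferon and mitochondrial-genome lists lie to the right of the dashed line. The interferon gamma median lies slightly to its left, and the chemokine, NF-kB and complement lists extend to the left.

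Inflammatory ligands were lower more often than the background. Of chemokine and cytokine ligands, 10 of 22 tested genes (45.5%) were lower and 2 of 22 tested genes (9.09%) higher without overlap, with a list median of -0.78 on the log2 scale. Il1b, the secreted interleukin 1 beta, stood at 556 and 529 CPM under BPTES and 897 and 2249 CPM under DMSO, a log2 fold change of -1.53 ± 0.51 (SE) (edgeR unadjusted p = 0.0435, adjusted p = 0.486). DMSO replicate 2 was far above the other 3 libraries, among which the other DMSO library was highest. Ccl4, an inflammatory chemokine, stood at 215 and 219 CPM under BPTES and 403 and 573 CPM under DMSO, with a log2 fold change of -1.16 ± 0.19 (SE) (DESeq2 adjusted p = 5.92e-05). The ligand Ccl6 stood at 919 to 1334 CPM with overlapping groups. Without DMSO replicate 2 the list median was -0.33.

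NF-kB genes, a list of subunits, inhibitors and induced targets of the factor, also varied with the DMSO library left out. Of 24 tested genes, 13 (54.2%) were lower and 0 higher without overlap. The lower genes included the subunit genes Rel, Relb and Nfkb2, the inhibitor genes Nfkbib and Nfkbie and the survival genes Birc3 and Bcl2a1b. The list had a median of -0.52 that became -0.15 without DMSO replicate 2 and -0.83 without DMSO replicate 1. The inhibitor gene Nfkbia stood at 423 and 411 against 359.6 and 881 CPM and Nfkbiz at 433 and 424 against 364 and 632 CPM, both with overlapping groups. Ier3, an immediate early survival gene, stood at 71.8 and 84.5 against 149.9 and 351 CPM, with a log2 fold change of -1.64 ± 0.48 (SE) (DESeq2 adjusted p = 0.00067). In these genes DMSO replicate 2, the library with 37 members, was the highest of the 4.

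Immediate early and dissociation genes split by kind. Without overlap, 15 of 29 tested genes (51.7%) were lower and 7 of 29 tested genes (24.1%) higher. The lower genes included Fos, Junb and Socs3. Fos, an AP-1 subunit, stood at 1470.5 and 1681 CPM under BPTES and 1901 and 2879 CPM under DMSO, with a log2 fold change of -0.60 ± 0.22 (SE). Junb, its partner, stood at 838 and 821 CPM under BPTES and 1182 and 1832 CPM under DMSO, with a log2 fold change of -0.86 ± 0.22 (SE) (DESeq2 adjusted p = 0.00599). Socs3, a brake on JAK-STAT signalling, stood at 90.4 and 116 CPM under BPTES and 237 and 397 CPM under DMSO, with a log2 fold change of -1.60 ± 0.29 (SE) (DESeq2 adjusted p = 1.23e-05). For these 3 genes DMSO replicate 2 was highest and DMSO replicate 1 still lay above both BPTES libraries. The higher genes were Klf2 and 6 heat shock genes, among them Hspa1a, Hspa1b and the Hsp90 gene Hsp90aa1 at 525 and 538 against 451 and 389 CPM and a log2 fold change of 0.33 ± 0.14 (SE). The constitutive chaperone Hspa8 stood at 1612 and 1954 against 1371 and 1536 CPM. Without DMSO replicate 2 the list median moved from -0.38 to -0.06, and without DMSO replicate 1 to -0.57.

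Receptors that sense microbes and immune complexes were lower more often than the background, in 12 of 30 tested genes (40%) without overlap, while 2 of 30 tested genes (6.67%) were higher. The list median was -0.34, -0.17 without BPTES replicate 1 and -0.07 without DMSO replicate 2. The lower genes included Tlr4 and its partner Cd14, the Fc receptors Fcgr1 and Fcgr2b, and Nlrp3 of the inflammasome. The most abundant members, the Fc receptor signalling chain Fcer1g and the inhibitory receptor Cd300a, stood at 1661 to 2198 and 406 to 525 CPM, the latter higher without overlap.

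Antigen presentation genes were lower in 13 of 21 tested genes (61.9%) and higher in 1 of 21 tested genes (4.76%) without overlap, with a median of -0.51. The median was -0.29 without DMSO replicate 1, -0.27 without members with dendritic cell markers and -0.28 in members of no set. Cd74, the invariant chain of MHC class II, stood at 3886 and 3269 CPM under BPTES and 5255 and 4567 CPM under DMSO, a log2 fold change of -0.46 ± 0.16 (SE) (edgeR unadjusted p = 0.0239, adjusted p = 0.451). H2-Ab1 stood at 1440.2 and 969 CPM under BPTES and 2153 and 1634 CPM under DMSO, a log2 fold change of -0.65 ± 0.24 (SE), and H2-Aa had -0.56 ± 0.21 (SE). The MHC class I light chain B2m stood at 2352 to 2920.1 CPM with overlapping groups. The difference varied with the sets described above. In members of no set Cd74 stood at 2553 and 2297 against 2143 and 2652 CPM and H2-Ab1 at 690.0 and 659 against 655 and 742 CPM, and both pairs of groups overlapped. The fold change of H2-Aa turned positive in these members. In members with dendritic cell markers Cd74 stood at 8422 and 6919 against 11514 and 10358 CPM, without overlap. These sets are small: dendritic cell markers were carried by 26 and 22 members under BPTES and 26 and 7 under DMSO. Members of no set numbered 31 and 60 against 36 and 12. Cd274, the checkpoint ligand PD-L1, stood at 26.9 and 31.8 against 67.6 and 116 CPM, with a log2 fold change of -1.60 ± 0.29 (SE) (DESeq2 adjusted p = 0.00367).

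Markers of other cell types are given beside this. Dendritic cell markers were lower without overlap in 7 of 14 tested genes (50%), with summed levels of 844 and 692 CPM under BPTES and 1133 and 916 CPM under DMSO. Cd209a, a lectin of monocyte-derived dendritic cells, stood at 91.7 and 85.7 against 133 and 175 CPM, with a log2 fold change of -0.78 ± 0.17 (SE). In DMSO replicate 2 only 5 of 37 members carried Cd209a, and 1 of them held 79.7% of its UMIs. The lectin gene Mgl2 stood at 18.3 and 7.36 against 104 and 39.5 CPM, with a log2 fold change of -2.56 ± 0.71 (SE) (DESeq2 adjusted p = 0.00173), and 1 member held 65.9% of its UMIs in DMSO replicate 2. Flt3, also in the list, did not follow. It was detected in 51.0% and 44.4% of members under BPTES and in 42.6% and 37.8% under DMSO. Macrophage markers were lower without overlap in 9 of 15 tested genes (60%) and higher in 0, and 3 of the 9 are the C1q chains that the rule limits. The list median was -0.50, -0.28 without DMSO replicate 2, -0.83 once doublet-like members were removed and 0.06 in members of no set. The last value covers only the 8 genes still tested there, and DMSO replicate 2 had 12 members of no set. It is therefore not a median of the same genes. Summed levels of the macrophage markers lay close together, at 2686 and 2719 CPM under BPTES and 2755 and 2997 CPM under DMSO. Apoe, the most abundant of them, stood at 1497 to 1748 CPM with overlapping groups. Lyve1, a marker of a resident macrophage subset, had no UMI in any member. How much of the MHC class II difference these markers carry was not tested beyond the values given.

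Of 16 tested nonclassical markers 14 overlapped. Pou2f2, a transcription factor gene of that list, stood at 369.8 and 338 against 226 and 276 CPM, with a log2 fold change of 0.51 ± 0.15 (SE), and Nr4a1 at 472 and 515 against 482 and 881 CPM with overlapping groups. Neutrophil markers summed to 234 and 301 CPM under BPTES and 289 and 411 CPM under DMSO, with Camp and Ly6g at 0, Csf3r at 107 to 145 CPM and Mmp8 at 61.1 to 107 CPM. Il1r2, a decoy receptor for interleukin 1 in that list, stood at 32.6 and 23.3 against 78.3 and 66.5 CPM, with a log2 fold change of -1.39 ± 0.21 (SE) (DESeq2 adjusted p = 0.023). T and NK cell markers summed to 9.58 and 37.6 CPM under BPTES and 78.6 and 129 CPM under DMSO, with Ccl5 at 4.32 and 16.2 against 46.5 and 24.1 CPM and Nkg7 at 0 and 4.71 against 4.71 and 31.8 CPM. A single member held 93 of 148 and 15 of 25 Ccl5 UMIs in the DMSO libraries, and a single member held 13 of 15 and all 33 Nkg7 UMIs. Plasmacytoid markers beyond Siglech were led by Bst2 and Tcf4 at 125 to 216 and 126 to 177 CPM, with overlapping groups. Tubule, vessel and stroma markers summed to 1893 and 379 CPM under BPTES and 961 and 1305 CPM under DMSO, and Kap and Slc34a1, proximal tubule genes, stood at 807 and 166 against 491 and 1189 CPM and 372 and 61.6 against 119.8 and 50.1 CPM. These levels were uneven between libraries of the same group, and 1 member held 91.7% of the Kap UMIs in DMSO replicate 2.

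Type I interferon genes had the highest share of higher genes among the 29 lists. Without overlap, 20 of 39 tested genes (51.3%) were higher and 1 of 39 tested genes (2.56%) lower, and 7 genes were higher at an unadjusted p under 0.05 with 0 lower. The list median was 0.33 on the log2 scale, and lay between 0.19 (without BPTES replicate 1) and 0.39 when each library was left out in turn. It was 0.21 without DMSO replicate 1, 0.52 without members with dendritic cell markers and 0.22 without doublet-like members. No gene of the list passed DESeq2 or edgeR. Stat2, a signal transducer of interferon receptors, stood at 124 and 113 CPM under BPTES and 101 and 65.5 CPM under DMSO, with a log2 fold change of 0.47 ± 0.21 (SE). The nucleic acid sensor genes Ifi204 and Ifi209 of the p200 family stood at 370.1 and 377 against 267 and 295 CPM and at 247 and 248 against 174 and 189 CPM, with log2 fold changes of 0.42 ± 0.13 (SE) and 0.45 ± 0.13 (SE). Members of this family are similar in sequence, so reads may be split between them. The most abundant genes of the list did not follow: Ifi27l2a stood at 784 and 673 against 706 and 1193 CPM and Ifi207 at 366 and 481 against 424 and 463 CPM, with overlapping groups. Isg15, a ubiquitin-like effector, stood at 97.01 and 102 against 60.04 and 97.3 CPM, also with overlap.

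Promoter sequence was compared because many of these genes are bound through the interferon-stimulated response element. The letters GAAA, any 2 bases and GAAA again, on either strand, were searched in RefSeq promoters, from 250 bases before to 50 bases after each start. They occurred in 3.44% of 32851 promoters and in those of 19 of 32 matched list genes (59.4%). The first share counts promoters and the second counts genes, which can have several promoters, so the units differ. The list was made of interferon response genes, so its high share is no result of these data. The sequences below, 50 bases from RefSeq on build GRCm38.p6 and read 5′ to 3′ on the gene's strand, show 3 genes that were higher without overlap and, last, 1 that was not. Of the 19 list genes with the letters 10 were higher without overlap and 9 overlapped, beside 20 of 39 higher in the whole list. Capitals mark the match, which reads TTTC first where it lies on the opposite strand. All 4 stretches lie before an annotated start of the gene.
Stat2: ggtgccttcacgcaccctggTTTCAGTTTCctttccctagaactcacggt
Slfn8: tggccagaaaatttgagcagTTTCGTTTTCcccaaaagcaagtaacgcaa
Ifi211: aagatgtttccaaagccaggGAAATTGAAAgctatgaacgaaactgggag
Ifit1: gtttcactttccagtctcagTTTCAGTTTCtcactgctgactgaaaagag
They lie at chr10:128270256-128270305, plus strand for Stat2, chr11:83020829-83020878, minus strand for Slfn8, chr1:173913054-173913103, minus strand for Ifi211 and chr19:34640784-34640833, plus strand for Ifit1. Slfn8, of the Schlafen family, stood at 79.7 and 85.4 against 63.8 and 62.6 CPM, with a log2 fold change of 0.38 ± 0.15 (SE). Ifi211 stood at 183 and 168 against 132 and 154 CPM, with a log2 fold change of 0.30 ± 0.14 (SE). Ifit1, an antiviral RNA-binding protein gene, carries the same letters and stood at 12.3 and 8.54 against 11.6 and 16.4 CPM with overlapping groups. A match describes the letters and is no evidence of binding.

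The interferon gamma list was balanced, with 3 of 24 tested genes (12.5%) higher and 5 of 24 tested genes (20.8%) lower without overlap. Its most abundant members, the receptor chain Ifngr1 and the immunoproteasome subunit Psmb8, stood at 509 to 638 and 361 to 396 CPM. Of monocyte transcription factors 8 of 35 were higher and 10 lower. Zeb2 and Cebpb, the most abundant, stood at 1526 to 2002 and 991 to 2348 CPM with overlapping groups. Cebpa, a factor of myeloid commitment, stood at 74.1 and 88.1 against 38.98 and 49.1 CPM, with a log2 fold change of 0.91 ± 0.19 (SE), and was called by edgeR without doublet-like members (adjusted p = 0.0374).

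The pathway of the drug target showed no common direction. Of 25 tested genes of glutamine and glutamate metabolism 7 were higher and 8 lower without overlap. The median was 0.11, and -0.04 without DMSO replicate 2. Glul, glutamine synthetase, stood at 107 and 87.8 against 79.5 and 84.8 CPM, with a log2 fold change of 0.25 ± 0.16 (SE). Glud1, which oxidises glutamate, stood at 539.5 and 589 against 538 and 506 CPM, with a log2 fold change of 0.11 ± 0.13 (SE). The glutamine transporter Slc38a2 stood at 154 and 174 against 124 and 153 CPM, with a log2 fold change of 0.26 ± 0.16 (SE). The last 3 genes were higher without overlap, none of them past the main test. The Glul fold change lost its direction without all 3 member sets. Slc7a11, the cystine-glutamate antiporter, stood apart at 15.3 and 42.1 CPM under BPTES and 86.1 and 171 CPM under DMSO, a log2 fold change of -2.10 ± 0.66 (SE) (DESeq2 adjusted p = 0.00128). Its heavy chain Slc3a2 stood at 96.3 and 91.3 against 121 and 159.9 CPM, with a log2 fold change of -0.57 ± 0.17 (SE). Slc7a5, the large neutral amino acid transporter that pairs with the same heavy chain, stood at 23.3 and 25.9 against 19.5 and 19.3 CPM, with a log2 fold change of 0.34 ± 0.23 (SE) whose sign turned without members with dendritic cell markers (-0.037) and without all 3 member sets (-0.18).

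The amino acid stress response driven by ATF4 had 6 of 26 tested genes (23.1%) higher and 10 of 26 tested genes (38.5%) lower. Atf3, a stress-induced factor, stood at 665 and 957 CPM under BPTES and 1026 and 1812 CPM under DMSO, with a log2 fold change of -0.80 ± 0.35 (SE), and Ppp1r15a, which restores translation, stood at 147 and 142 against 158 and 189.8 CPM. Chac1, Stc2, Aldh1l2 and Fgf21 had no UMI in any member.

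Nuclear-encoded respiratory chain genes were lower without overlap in 29 of 39 tested genes (74.4%) and higher in 1 of 39 tested genes (2.56%), with a median of -0.21 and 7 lower at an unadjusted p under 0.05. The median lay between -0.24 and -0.16 when each library was left out. Cox8a, a subunit of cytochrome c oxidase, stood at 442 and 495 CPM under BPTES and 589.7 and 669.6 CPM under DMSO, a log2 fold change of -0.42 ± 0.14 (SE). Cox4i1, the most abundant, stood at 699 and 726 against 757 and 731 CPM. Genes of the mitochondrial genome leaned the other way, with 4 of 13 tested genes (30.8%) higher, 0 lower and a median of 0.35. The gene mt-Co1, of cytochrome c oxidase, stood at 7120.0 and 5608 against 5621 and 4758 CPM, with a log2 fold change of 0.29 ± 0.17 (SE), and mt-Co3 at 5386 and 4101 against 4283 and 3719.7 CPM. The mitochondrial list had a median of 0.10 without BPTES replicate 1, 0.07 once doublet-like members were removed and 0.20 with DMSO replicate 2 left out. In members of no set it was -0.49, so its direction turned.

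Glycolysis genes were lower without overlap in 9 of 19 tested genes (47.4%) and higher in 2 of 19 tested genes (10.5%), with a median of -0.33 that became -0.19 without BPTES replicate 1 and -0.11 in members of no set. Gapdh stood at 766 and 836 CPM under BPTES and 987 and 1138 CPM under DMSO, a log2 fold change of -0.41 ± 0.14 (SE) (edgeR unadjusted p = 0.026, adjusted p = 0.451). Pkm, pyruvate kinase, stood at 352 and 449 against 473 and 556 CPM, with a log2 fold change of -0.36 ± 0.17 (SE). Both genes had the BPTES libraries below the DMSO libraries by less than 2-fold. Lysosomal genes, which include Ctsd and Lgmn, had 8 of 23 tested genes (34.8%) lower and 2 of 23 tested genes (8.7%) higher. Psap and Ctss, the most abundant, stood at 2152 to 2753 and 2033 to 2541 CPM with overlapping groups.

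Complement genes were lower without overlap in 8 of 14 tested genes (57.1%) and higher in 0, and 3 of the 8 lower genes are the C1q chains that the rule limits. Cfp, properdin, a stabiliser of the alternative pathway, stood at 101 and 82.2 CPM under BPTES and 135 and 245 CPM under DMSO, with a log2 fold change of -1.02 ± 0.32 (SE). C3 and Itgam, the alpha chain of complement receptor 3, stood at 179 to 287 and 263 to 317 CPM with overlapping groups. Also called by DESeq2 as lower, the ferritin heavy chain gene Fth1 stood at 2393 and 2929 CPM under BPTES and 3864 and 5102 CPM under DMSO (DESeq2 adjusted p = 0.00515) and metallothionein Mt1 at 26.9 and 46.5 CPM under BPTES and 98.1 and 222 CPM under DMSO (DESeq2 adjusted p = 0.000144). Their log2 fold changes were -0.75 ± 0.19 (SE) and -2.07 ± 0.55 (SE). Cstb, an inhibitor of cathepsins, had -0.84 ± 0.19 (SE).

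Whether the effect of BPTES differed between monocytes and their relatives was put to edgeR as a class-by-treatment term, in a fit that also blocks on the library. Against C1q macrophages 0 of 13116 genes passed edgeR's adjusted p of 0.05, and 684 (5.22%) had an unadjusted p under 0.05. Against nonclassical monocytes 0 of 11675 passed, and 581 (4.98%) had an unadjusted p under 0.05. The classes come from the same libraries, so effects are given side by side. Rfx2 had log2 fold changes of 1.32 ± 0.16 (SE) in classical monocytes, 2.49 ± 0.25 in macrophages and 2.40 ± 0.24 in nonclassical monocytes. Tsc22d3 had 0.90 ± 0.24 and 1.25 ± 0.19 in the latter classes, Hspa1a 1.01 ± 0.13 and 0.87 ± 0.17, and Itga4 0.62 ± 0.09 and 0.49 ± 0.19. Ctsd had -1.31 ± 0.14 and -0.96 ± 0.36, and Lgmn -0.57 ± 0.08 and -0.53 ± 0.30. These genes had the sign seen in classical monocytes in both other classes.

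Sh3bp5 had -0.30 ± 0.11 in macrophages, a monocyte-minus-macrophage difference of 1.59 ± 0.19 on the log2 scale (edgeR adjusted p = 0.287). Basp1 had 0.10 ± 0.09 in macrophages, a difference of -1.99 ± 0.26 (edgeR adjusted p = 0.346). Fam102b, Tmcc1, Txnip and Cebpa had differences of 1.07 ± 0.20, 0.96 ± 0.17, 0.94 ± 0.29 and 0.83 ± 0.19. None of these passed the adjusted test, so a difference between the classes is not shown. For Cd74 the effect was 0.07 ± 0.09 in macrophages and -0.59 ± 0.16 in nonclassical monocytes. The smallest adjusted p was 0.0691 for Saa3 against macrophages and 0.0557 for Plvap against nonclassical monocytes, both genes that single members dominate in some libraries.

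The gene with the smallest p in the main test was an immunoglobulin gene. Igkc, the kappa light chain constant region, stood at 219.6 and 306 CPM under BPTES and 52.2 and 49.1 CPM under DMSO, a log2 fold change of 2.37 ± 0.20 (SE) (edgeR adjusted p = 0.0875, DESeq2 adjusted p = 6.97e-15). Igha, the IgA heavy chain, stood at 81.1 and 144 CPM under BPTES and 12.3 and 2.89 CPM under DMSO (log2 fold change 3.59 ± 0.58 (SE)), and Jchain, which joins IgA dimers, at 15.6 and 27.98 CPM under BPTES and 3.14 and 4.82 CPM under DMSO (log2 fold change 2.54 ± 0.46 (SE)). Tubule barcodes, which do not make antibodies, held Igkc at 259 and 498 against 61.8 and 59.5 CPM. They held Igha at 97.3 and 254 against 12.1 and 5.05 CPM and Jchain at 20.6 and 68.8 against 4.18 and 3.89 CPM. Igha was detected in 8.11% to 95.5% of members and 10.9% to 91.7% of tubule barcodes across libraries. In both BPTES libraries the level of all 3 genes was lower in members than in tubule barcodes, while in the DMSO libraries the order differed between genes. The source of these UMIs was not tested. Xbp1, a secretory factor in the same list, stood at 137 to 191 CPM, and Cd79a is 0 by the rule.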

How the data were processed

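Raw UMI counts per gene and barcode were deposited by the authors for 4 libraries; Cell Ranger 8.0.1 and build mm10 are named per the submitters' processing notes, and the matrices hold whole-number counts per the file headers. Barcodes were kept with at least 500 UMIs, 300 genes and at most 50% mitochondrial UMIs. No doublet caller was run here: the rule removes barcodes with T, B, plasmacytoid, neutrophil or cycling markers, and an alternative removes doublet-like members (at least 3 UMIs of tubule or vessel markers, or over 3 times the library's median total).

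UMIs were summed per library and tested with edgeR 4.0.16 (quasi-likelihood, robust, TMM scaling, filterByExpr, Benjamini-Hochberg over all genes, threshold 0.05) in R 4.3.3. CPM of tested genes in all members are TMM-scaled, while summed list levels and levels of other classes and member sets are not. An added tdTomato sequence was not tested. SEs come from the F statistic. Shares were compared with an exact permutation test, and intervals are exact (Clopper-Pearson). The code was tested on simulated data. Alternatives were DESeq2 1.42.0, RLE scaling, no filter, a replicate block, leaving out each library, other limits of the rule and removal of member sets. Named genes are those of the rule, the given markers, called genes and, for each list with none, its 2 most abundant genes; further genes were chosen after their values were seen. The members and all 29 gene lists were chosen with earlier results of these data known. mm10 and GRCm38 are the same build. Values of a few genes are not reported here.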

Additional observations from a re-analysis of the deposited data

How the results depend on the processing

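The mean share was higher under BPTES in all settings run, by 0.401 to 1.03 percentage points over the other limits, denominators and member sets, and by 0.388 to 1.54 when 1 library was left out, where no permutation test was made. The groups overlapped (exact permutation p = 0.667) with all kept barcodes as the denominator and after removal of each member set or all of them. The count of genes passing the main test, 0, became 336 with no low-count filter, 52 with DESeq2, 44 without doublet-like members, 22 without all 3 member sets, 1 without members with dendritic cell markers and 1 with at least 4 Ly6c2 UMIs. It was 1 to 16 when 1 library was left out, the lone library of a group then being assumed to vary like the others: leaving out the first or second BPTES library gave 1 or 10, and the first or second DMSO library 16 or 6. It stayed 0 with RLE scaling, with a 25% mitochondrial limit, with at most 2 C1q UMIs, without nonclassical-marker members and without immunoglobulin genes. Removing members with dendritic cell or nonclassical markers, or all sets, was chosen after seeing the data.

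With the replicate number as a block, 291 genes passed. The labels do not say that a number marks a shared animal, batch or day; deviations of replicate 1 from replicate 2 correlated across 4720 genes at r = 0.29 between the groups, and 2 pairs cannot settle a pairing.

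The interaction count with C1q macrophages, 0, became 28 with no filter, 1 with at least 4 Ly6c2 UMIs and 1 to 6 with 1 library left out. The interaction count with nonclassical monocytes, 0, became 43 with no filter and 0 to 13 with 1 library left out. The causes of these moves were not tested. Of 75 genes given with a fold change, 69 kept their sign in every setting that could be fitted. Plac8 ran from -0.21 to 0.0029 with 1 library left out, the latter without DMSO replicate 2. Without all 3 member sets Cd74 was 0.025, H2-Aa 0.15, Glul -0.0041, mt-Co1 -0.19 and Slc7a5 -0.18, and Slc7a5 was -0.037 without members with dendritic cell markers. The second DMSO library is limited most, by its 37 members and not by their depth.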

Other observations

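Of repair genes, 9 of 31 tested genes (29%) were lower and 2 of 31 tested genes (6.45%) higher without overlap. Fn1, an early matrix protein, stood at 1215 and 1337 CPM under BPTES and 1041 and 1122 CPM under DMSO, with a log2 fold change of 0.24 ± 0.14 (SE), and F13a1 at 707 and 843 CPM under BPTES and 584 and 718 CPM under DMSO, with a log2 fold change of 0.26 ± 0.17 (SE). Retnla, a marker of alternative activation, had no UMI in any member. In NAD metabolism 3 genes were higher and 4 lower of 15. The NAD kinase Nadk stood at 333 and 359.6 against 263 and 271 CPM and the mono-ADP-ribosyltransferase Parp14 at 192 and 167 against 133 and 141 CPM, with log2 fold changes of 0.38 ± 0.13 (SE) and 0.39 ± 0.14 (SE). Cd38, an NAD-consuming ectoenzyme, stood at 9.30 and 2.95 against 10.7 and 44.3 CPM. Of 24 cholesterol and lipid genes 18 overlapped, and Alox5ap, which serves leukotriene synthesis, stood at 985 to 1226 CPM.

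Senescence and p53 target genes were lower without overlap in 9 of 20 tested genes (45%) and higher in 2 of 20 tested genes (10%). The list median was -0.19, -0.02 without members with nonclassical markers and 0.07 in members of no set, where its direction turned. Cdkn1a, the cell cycle inhibitor p21, stood at 116 and 136 CPM under BPTES and 203 and 406 CPM under DMSO, a log2 fold change of -1.25 ± 0.37 (SE) (DESeq2 adjusted p = 0.00606), and was detected in 56.9% to 83.8% of members against 4.30% to 13.2% of tubule barcodes. It did not pass the main test, and DMSO replicate 2 was the highest library. Cdkn2a and Cdkn2b, which mark senescent cells, had no UMI in any member. Btg2, an antiproliferative gene, stood at 638 and 569 against 646 and 934 CPM, and the urokinase receptor Plaur at 455 and 439.7 against 331 and 538 CPM with overlapping groups.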
